A study of Mus musculus with 12 samples.

Results

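A set of 45 genes of DNA damage signalling and DNA repair was followed through 12 libraries of polyadenylated RNA from primary neurons of C57BL/6 mice. The members were taken by gene symbol, and all 45 were listed in both deposited tables, which hold 18223 and 17800 genes. In the oncogene model, 3 libraries of neurons over-expressing H-Ras(G12V), an oncogenic mutant of H-Ras that stays in its GTP-bound signalling state, stood against 3 control libraries of wild-type neurons labelled mCherry, after a fluorescent marker. In the chemical model, 3 libraries of wild-type neurons titled etoposide stood against 3 titled Control(DMSO), the solvent. Etoposide is a topoisomerase II poison that leaves breaks in DNA. All 12 libraries were labelled as day 10, and no age of the mice is stated. For the 6 libraries of the chemical model the treatment label names the opposite group to the title, and groups were taken from the title, which the library and column names follow. Every direction given for etoposide therefore holds for the libraries titled etoposide. Whether the 3 libraries of each group were separate cultures is not stated, so the p-values speak for the spread among these libraries alone, and that spread may be technical.

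Breaks in DNA are sensed by the kinases ATM and ATR, which signal through CHK2 and CHK1 to halt the cell cycle. Breaks through both strands are rejoined either by end joining, led by the Ku proteins, or by homologous recombination, which copies the sister chromatid and so is used by cells in S and G2 phase. The Fanconi anaemia proteins deal with crosslinks between the strands, base excision repair replaces damaged bases, and nucleotide excision and mismatch repair remove bulky lesions and mispaired bases. Neurons have left the cell cycle and rely on end joining and the excision pathways, while several recombination, Fanconi anaemia and checkpoint genes are known to be transcribed mainly in dividing cells.

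Expression was given as FPKM, fragments per kilobase of transcript scaled to the library total, so levels can be compared between genes per unit of length. Fragment counts were not used here. A rough estimate from the steps between low values put the depth at 14400000 to 15700000 fragments in the oncogene model and 24100000 to 28800000 in the chemical model. Some libraries stood apart. Libraries 1 and 2 of mCherry correlated by rank at 0.997 across genes, while library 3 reached 0.929 and 0.925 with them. Etoposide library 3 correlated at 0.811 and 0.881 with etoposide libraries 1 and 2 and at 0.931 to 0.979 with the DMSO libraries. DMSO library 3 correlated at 0.956 and 0.943 with DMSO libraries 1 and 2. These values describe the libraries only, since genes are not independent replicates. Of the 17 neuronal markers, none was at 0 in any library, and their summed level ranged from 2207 to 2682 FPKM with H-Ras(G12V), 2850 to 3936 with mCherry, 1398 to 4358 with etoposide and 3586 to 3810 with DMSO. Markers of astrocytes, oligodendrocyte lineage cells and neural progenitors were present too. In such bulk libraries, fewer cells of a type and less RNA per cell cannot be told apart.

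**Figure D1:**
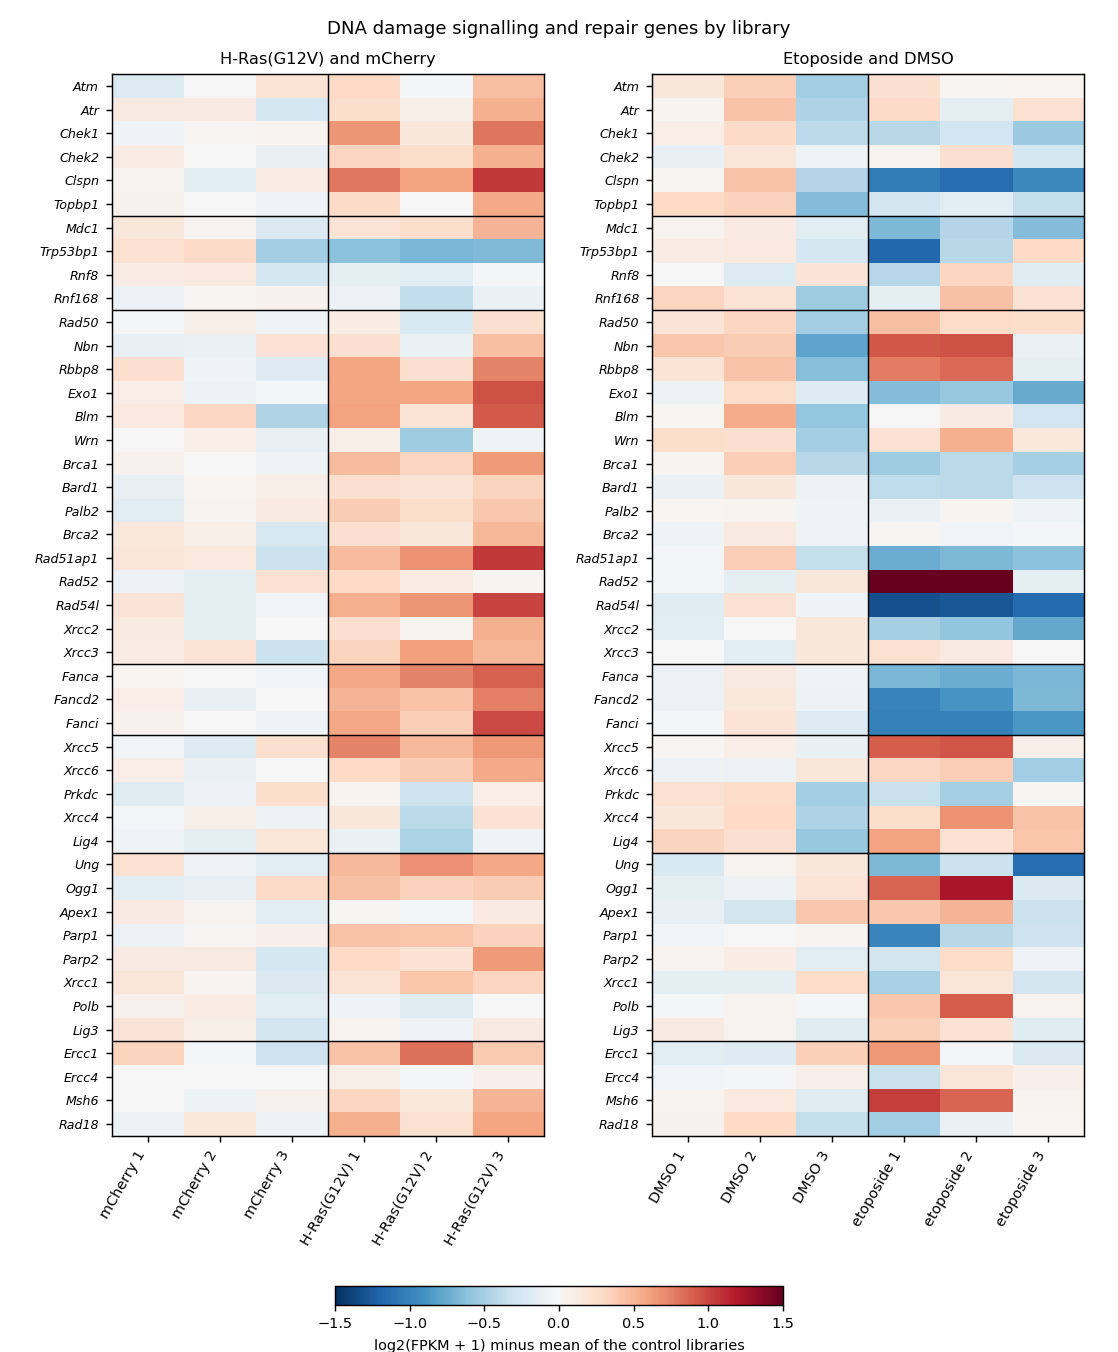
Each line is a gene of the set, grouped by role between the horizontal lines, and each column a library. The colour gives log2(FPKM + 1) minus the mean of the 3 control libraries of the same table, with red for higher and blue for lower. Clspn, Rad54l and the Fanconi anaemia genes are red in all 3 H-Ras(G12V) libraries and blue in all 3 etoposide libraries, and Rad52 is dark red in etoposide libraries 1 and 2 only.

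With H-Ras(G12V), 8 of the 44 members tested rose and none fell. Testing required a mean of at least 1 FPKM across the 6 libraries of the model, and a gene was called where limma on log2(FPKM + 1) gave a Benjamini-Hochberg adjusted p under 0.05. Over all 12724 genes tested, 10.3% were called higher and 6.67% lower. At an unadjusted p under 0.05, 20 members were higher and 1 was lower, where 20.4% and 14% of all tested genes were. The median log2 fold change of the tested members was 0.33, against 0.05 over all genes tested. The H-Ras(G12V) values lay above all mCherry values for 25 of the 44 tested members and below them for 2, where 23.7% and 16.6% of all tested genes did so. Palb2, the partner that brings BRCA2 to BRCA1, averaged under 1 FPKM and was the member not tested, with 1.10, 0.93 and 1.13 FPKM in H-Ras(G12V) libraries 1, 2 and 3 and 0.44, 0.65 and 0.75 in mCherry libraries 1, 2 and 3.

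Among the damage kinases and their checkpoint partners, Clspn rose. It encodes claspin, the adaptor through which ATR activates CHK1 at stalled forks. Clspn read 6.14, 5.24 and 7.61 FPKM in H-Ras(G12V) libraries 1, 2 and 3 and 3.24, 2.69 and 3.45 in mCherry libraries 1, 2 and 3. All 3 treated libraries lay above all controls, with a ratio of means of 2.02 and a log2 fold change of 0.82 (SE 0.16, limma adjusted p = 0.0199). Chek1, the gene of the kinase that claspin serves, read 5.43, 3.58 and 6.09 FPKM against 2.91, 3.12 and 3.17, with no overlap, but did not pass (log2 fold change 0.55, adjusted p = 0.0856). Chek2, the ATM-dependent counterpart, also had groups that did not overlap (4.31 to 5.45 against 3.10 to 3.79 FPKM, adjusted p = 0.108). The groups overlapped for Atm, Atr and Topbp1, the ATR activator, whose log2 fold changes lay between 0.24 and 0.30.

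Rad54l and Exo1 rose among the 15 genes of end resection, recombination and helicases. Exo1, an exonuclease that resects broken ends, read 2.38, 2.40 and 3.35 FPKM in H-Ras(G12V) libraries 1, 2 and 3 and 1.41, 1.12 and 1.22 in the mCherry libraries. The groups were well apart, with a log2 fold change of 0.71 (SE 0.16, adjusted p = 0.0269). Rad54l, a DNA motor protein of homologous recombination, read 3.49, 3.88 and 5.18 FPKM against 2.5, 1.77 and 1.99. Its ratio of means was 2.0 and its log2 fold change 0.74 (SE 0.17, adjusted p = 0.0317).

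Other recombination genes had groups that did not overlap without passing the test. Rad51ap1, a recombination cofactor, read 6.05, 7.07 and 9.60 FPKM against 4.74, 4.62 and 3.06 in mCherry libraries 1, 2 and 3 (log2 fold change 0.73, adjusted p = 0.0539). Brca1, which steers breaks towards recombination, read 3.35, 2.93 and 3.90 FPKM against 2.29, 2.14 and 2.0 (log2 fold change 0.48, adjusted p = 0.0583). Rbbp8, which encodes the resection factor CtIP, and Xrcc3, a recombination factor, had adjusted p of 0.0923 and 0.104. Bard1, the partner of BRCA1, read 1.40 to 1.66 against 0.94 to 1.23 FPKM, and Brca2, a mediator of recombination, 1.32 to 1.90 against 0.74 to 1.29 FPKM, with adjusted p of 0.242 and 0.255. The groups overlapped for Rad50, Nbn, Blm, Wrn, Rad52 and Xrcc2.

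All 3 Fanconi anaemia members had H-Ras(G12V) values above all mCherry values, and 2 of them rose. Fanca, a subunit of the core ligase complex, read 2.27, 2.66 and 3.05 FPKM in H-Ras(G12V) libraries 1, 2 and 3 and 1.23, 1.20 and 1.13 in the mCherry libraries. The ratio of means, 2.24, was the largest among the 8 called members, with a log2 fold change of 0.74 (SE 0.14, adjusted p = 0.0176). Fancd2, which the core complex ubiquitinates, read 3.57, 3.34 and 4.43 FPKM against 2.46, 1.98 and 2.24 (log2 fold change 0.56, SE 0.15, adjusted p = 0.0423). Fanci, the partner of FANCD2, read 3.82, 3.17 and 5.41 FPKM against 2.37, 2.20 and 2.11 and just missed the threshold (log2 fold change 0.65, adjusted p = 0.0524).

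In end joining, Xrcc5 rose. It encodes Ku80, which with Ku70 forms the ring that caps a broken end. Xrcc5 read 19.27, 15.90 and 18.01 FPKM against 10.74, 9.55 and 13.22 in mCherry libraries 1, 2 and 3, so that mCherry library 3 was the nearest control and the groups still did not overlap (log2 fold change 0.63, SE 0.15, adjusted p = 0.0333). Xrcc6, the gene of Ku70, read 17.57, 18.67 and 21.26 FPKM against 15.09, 13.08 and 14.10 and did not pass (log2 fold change 0.42, adjusted p = 0.0595). Prkdc, the catalytic kinase of the Ku complex, and Xrcc4 and Lig4, which seal the joint, had overlapping groups. The 95% confidence intervals of their log2 fold changes ran from -0.49 to 0.37, from -0.44 to 0.44 and from -0.60 to 0.17.

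Of the base excision and single-strand break genes, Ung and Parp1 rose. Ung encodes the glycosylase that removes uracil from DNA. It read 3.65, 4.34 and 3.94 FPKM in H-Ras(G12V) libraries 1, 2 and 3 and 2.87, 2.16 and 1.98 with mCherry (log2 fold change 0.58, SE 0.15, adjusted p = 0.0421). Parp1, the poly(ADP-ribose) polymerase that marks breaks, was among the more abundant members and read 52.51, 52.21 and 49.58 FPKM against 36.50, 39.19 and 40.79 (log2 fold change 0.40, SE 0.10, adjusted p = 0.0437). Its ratio of means, 1.32, was the smallest among the 8 called members. Ogg1, the glycosylase for oxidised guanine, had groups that did not overlap, at 8.31 to 8.96 against 5.53 to 7.96 FPKM, with mCherry library 3 the highest control (adjusted p = 0.124). Parp2, a second polymerase of the PARP family, and Xrcc1, the scaffold of single-strand break repair, were likewise separate and not called (adjusted p = 0.166 and 0.169). Apex1, the abasic-site endonuclease and the most abundant member, averaged 65.2 ± 3.37 FPKM with H-Ras(G12V) and 63.5 ± 6.23 with mCherry (SD, n = 3 per group). The groups also overlapped for Polb, the gap-filling polymerase, and Lig3, the ligase that works with XRCC1.

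Among the mediators at broken chromatin, none was called and 2 had H-Ras(G12V) values below all mCherry values. Trp53bp1 encodes 53BP1, which shields ends from resection. It read 16.25, 15.44 and 15.71 FPKM in the H-Ras(G12V) libraries and 29.91, 31.19 and 17.48 in mCherry libraries 1, 2 and 3. Each H-Ras(G12V) value lay below each control, but mCherry library 3 lay near the treated libraries, and the difference did not pass (log2 fold change -0.65, SE 0.22, adjusted p = 0.0833). Without mCherry library 3 it passed, at a log2 fold change of -0.91 (adjusted p = 0.000354), and over 16 alternative settings the adjusted p ranged from 0.000354 to 0.326. Rnf168, a ubiquitin ligase that recruits 53BP1, also had groups that did not overlap, at 7.54 to 9.38 against 9.39 to 10.49 FPKM (log2 fold change -0.18, adjusted p = 0.349). Mdc1, which binds phosphorylated histone H2AX, read 8.15 to 10.35 against 5.85 to 7.94 FPKM (adjusted p = 0.183), and Rnf8, the ligase acting before RNF168, had overlapping groups.

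The members of nucleotide excision, mismatch repair and lesion bypass did not pass. Ercc1, part of the nuclease that cuts beside bulky lesions, averaged 27.2 ± 4.87 FPKM with H-Ras(G12V) and 18.4 ± 4.36 with mCherry (SD, n = 3 per group; adjusted p = 0.102). Msh6, of the mismatch recognition complex, read 14.29 to 18.52 against 12.05 to 13.37 FPKM (adjusted p = 0.123), and Rad18, the ligase that opens lesion bypass, 4.68 to 6.33 against 3.60 to 4.45 FPKM (adjusted p = 0.0882). These 3 had groups that did not overlap. Ercc4, the catalytic partner of ERCC1, read 4.42 to 4.82 against 4.48 to 4.52 FPKM.

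**Figure D2:**
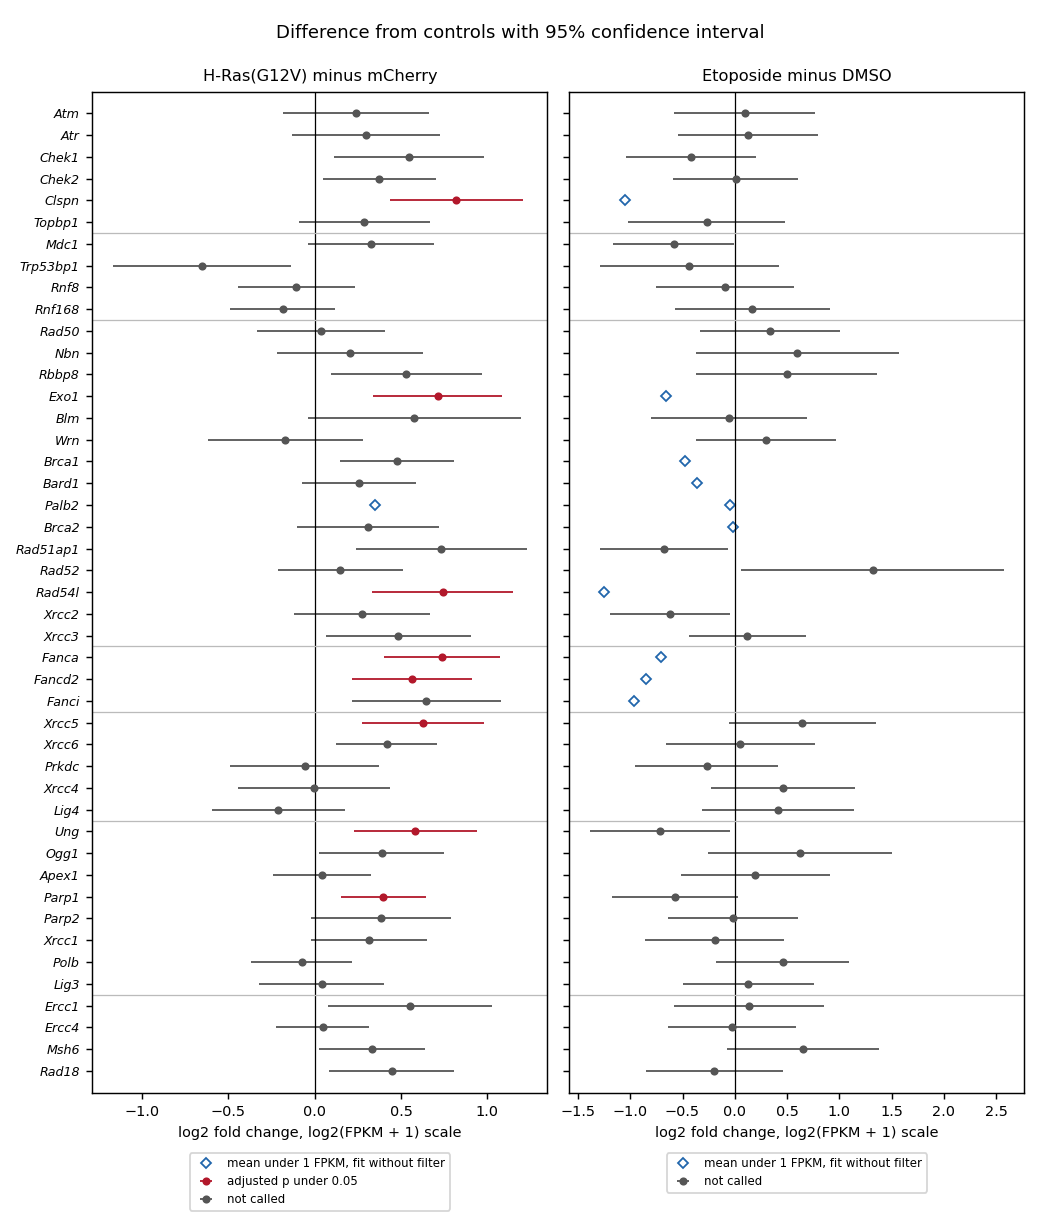
Points give the log2 fold change of each member on the log2(FPKM + 1) scale and bars its 95% confidence interval, for H-Ras(G12V) minus mCherry on the left and etoposide minus DMSO on the right, with 3 libraries per group. Red points were called, grey ones were not, and open blue diamonds are members averaging under 1 FPKM, taken from a fit with no filter on level. The 8 red points are all on the left and all above 0, and the open diamonds of the right panel all lie below 0.

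These calls rested on the full set of 6 libraries. Without mCherry library 3, 14 members were higher and 1, Trp53bp1, was lower, where 25.4% and 19.5% of 12735 genes were called. The added ones were Chek1, Brca1, Rad51ap1, Fanci, Xrcc6 and Ogg1. Without H-Ras(G12V) library 1, H-Ras(G12V) library 3, mCherry library 1 or mCherry library 2, no member was called, and between 496 and 690 genes were called in all. Without H-Ras(G12V) library 2, the 2 members called were Clspn and Chek1, both higher, where 652 of 12703 genes were higher and 479 lower. With mCherry libraries 1 and 2 averaged into 1, none was called. With no filter on level, 6 of the 45 members were higher and none lower, Fancd2 and Ung no longer passing, where 7.6% and 4.33% of 17602 genes were called. Over 14 alternative settings, other pseudocounts included, the log2 fold change of Clspn lay between 0.48 and 0.99 and its adjusted p between 0.00396 and 0.0792. That of Fanca lay between 0.31 and 1.09, with adjusted p between 0.00507 and 0.0737. Scaling the libraries to a common sum left 4 members higher, Clspn, Exo1, Fanca and Rad54l, and made Trp53bp1 lower (log2 fold change -0.79, adjusted p = 0.0493). Over all 12721 genes tested, that scaling called 856 higher and 1332 lower. Median-of-ratios scaling left 5 members higher, Clspn, Exo1, Fanca, Rad54l and Xrcc5, where 1046 of 12719 genes were higher and 1084 lower. These scalings moved the share of higher calls among all called genes from 60.7% to 39.1% and 49.1%, and moved the median of all genes from 0.05 to -0.07 and -0.01.

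The promoters of the called members with the largest log2 fold changes are shown, with the promoters of the members that moved least for comparison. RefSeq entries on build GRCm38.p6, which is not the build of the deposited values, matched 36 of the 45 members. Exo1 and Rad50 also belong to these groups by size of change. Each sequence runs 5′ to 3′ on the strand of the gene, from 250 bases before the annotated start to 30 bases after it. Capitals mark CCAAT, or ATTGG where it lies on the opposite strand, and 1 E2F word. The E2F words searched were TTTCCCGC, TTTCGCGC, TTTGCCGC and TTTGGCGC, and the words TTTGAA and TTCGAA stood for the cell-cycle homology region. All were searched on both strands over 250 bases before to 50 bases after the start.
Clspn (chr4:126556730-126557009, plus strand): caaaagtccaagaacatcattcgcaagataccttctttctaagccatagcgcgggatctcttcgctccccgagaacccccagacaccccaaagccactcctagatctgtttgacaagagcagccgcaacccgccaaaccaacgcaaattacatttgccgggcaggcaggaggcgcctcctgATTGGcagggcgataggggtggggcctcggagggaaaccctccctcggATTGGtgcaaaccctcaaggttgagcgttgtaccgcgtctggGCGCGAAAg
Rad54l (chr4:116123661-116123940, minus strand): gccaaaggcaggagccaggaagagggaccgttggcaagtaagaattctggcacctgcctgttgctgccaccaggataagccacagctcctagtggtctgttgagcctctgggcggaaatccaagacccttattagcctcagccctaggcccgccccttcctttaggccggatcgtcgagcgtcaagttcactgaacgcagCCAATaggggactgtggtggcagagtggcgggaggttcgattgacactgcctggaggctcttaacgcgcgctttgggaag
Fanca (chr8:123318547-123318826, minus strand): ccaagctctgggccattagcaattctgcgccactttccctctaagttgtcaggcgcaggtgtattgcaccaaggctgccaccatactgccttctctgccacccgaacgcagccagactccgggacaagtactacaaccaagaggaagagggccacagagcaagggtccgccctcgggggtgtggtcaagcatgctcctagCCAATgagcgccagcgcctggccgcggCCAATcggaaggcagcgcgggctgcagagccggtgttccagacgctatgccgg
Xrcc5 (chr1:72307171-72307450, plus strand): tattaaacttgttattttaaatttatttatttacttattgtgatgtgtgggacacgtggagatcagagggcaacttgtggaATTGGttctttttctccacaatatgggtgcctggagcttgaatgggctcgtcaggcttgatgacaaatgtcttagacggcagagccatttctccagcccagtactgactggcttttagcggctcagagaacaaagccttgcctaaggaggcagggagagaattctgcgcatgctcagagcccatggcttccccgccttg
Xrcc4 (chr13:90089579-90089858, minus strand): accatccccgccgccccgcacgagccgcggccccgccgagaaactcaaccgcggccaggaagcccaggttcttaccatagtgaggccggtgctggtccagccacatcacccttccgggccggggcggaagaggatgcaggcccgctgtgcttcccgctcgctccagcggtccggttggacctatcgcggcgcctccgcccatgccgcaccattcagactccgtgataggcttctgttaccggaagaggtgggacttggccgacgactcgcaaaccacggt
Lig3 (chr11:82780859-82781138, plus strand): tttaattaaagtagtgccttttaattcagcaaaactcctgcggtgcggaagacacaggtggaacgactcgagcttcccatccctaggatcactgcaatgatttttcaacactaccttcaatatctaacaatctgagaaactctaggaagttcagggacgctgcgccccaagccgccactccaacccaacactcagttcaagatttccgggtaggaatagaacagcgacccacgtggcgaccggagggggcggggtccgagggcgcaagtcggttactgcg

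Clspn carried an E2F word, written GCGCGAAA on the strand shown, 22 bases after the start, and CCAAT boxes that begin 69 and 21 bases before it. Rad54l had a CCAAT box 50 bases before the start, and Fanca had CCAAT boxes 50 and 23 bases before it. In Xrcc5 the box lay farther out, 169 bases before the start. None of these words was found in the windows of Xrcc4 and Lig3. An E2F word was found in 8 of the 36 matched members (22.2%) and in 2.32% of 27025 mouse promoters of the same length. These 8 were Bard1, Brca2, Chek2, Clspn, Mdc1, Msh6, Topbp1 and Xrcc6. Among the 6 called members with an entry, 1 held an E2F word (16.7%), and among the 30 other matched members 7 did (23.3%). CCAAT was found in 19 of the 36 members (52.8%) and in 37.9% of all promoters, and the cell-cycle homology words in 4 (11.1%) and in 19.4%. A match describes the letters in the window and is not a site.

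With etoposide, none of the 35 members tested was called in either direction. Over all 12371 genes tested limma called 0% higher and 0.453% lower. At an unadjusted p under 0.05, 1 member was higher, Rad52, and 4 were lower, Mdc1, Rad51ap1, Xrcc2 and Ung, where 7.42% and 6.52% of all tested genes were. The median log2 fold change of the tested members was 0.09, as it was over all genes tested. With no filter on level it was -0.03 over the 45 members and 0.03 over all genes. Of the tested members, the etoposide values lay above all DMSO values for 1 and below them for 5, where 7.64% and 8.17% of all tested genes did so. The other 10 members averaged under 1 FPKM in this table and were not tested.

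These 10 were Clspn, Exo1, Brca1, Bard1, Palb2, Brca2, Rad54l and the 3 Fanconi anaemia genes, and for 7 of them each etoposide value lay below each DMSO value. Among 2455 genes averaging 0.1 to 1 FPKM in that table, 9.9% did so. Rad54l read 0.05, 0.08 and 0.18 FPKM in etoposide libraries 1, 2 and 3 and 1.31, 2.09 and 1.54 in DMSO libraries 1, 2 and 3. Fanca read 0.15, 0.11 and 0.15 FPKM against 0.75, 1.03 and 0.79. Fanci read 0.09, 0.09 and 0.20 FPKM against 1.18, 1.54 and 0.92. In a fit with no filter on level these 3 were called lower, with log2 fold changes of -1.25, -0.70 and -0.97 (limma adjusted p = 0.0286, 0.0286 and 0.0406), and that fit called 0.293% of all 17722 genes lower and 0% higher. On the log2(FPKM + 1) scale a fold at so low a level is understated. The ratios of DMSO to etoposide means were 15.9 for Rad54l, 6.27 for Fanca and 9.58 for Fanci.

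Clspn, Fancd2, Exo1 and Bard1 had the same separation and were not called in that fit. Clspn read 0.15, 0.08 and 0.22 FPKM in etoposide libraries 1, 2 and 3 and 1.40, 2.19 and 0.75 in the DMSO libraries (adjusted p = 0.212), with a ratio of DMSO to etoposide means of 9.64. DMSO library 3 was the lowest control. Fancd2 read 0.14, 0.24 and 0.43 FPKM against 1.15, 1.55 and 1.17 (adjusted p = 0.0747). Exo1 read 0.13 to 0.28 against 0.66 to 1.30 FPKM, and Bard1 0.19 to 0.27 against 0.47 to 0.77 FPKM. Palb2 and Brca2 overlapped, as did Brca1, at 0.39 to 0.52 against 0.51 to 1.61 FPKM. By the rough depth estimate, the etoposide values of Rad54l rest on about 4 to 14 fragments per library, those of Fanca on 11 to 17, those of Fanci on 10 to 24 and those of Clspn on 9 to 29. The DMSO values of these genes rest on about 91 to 283 fragments per library.

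**Figure D3:**
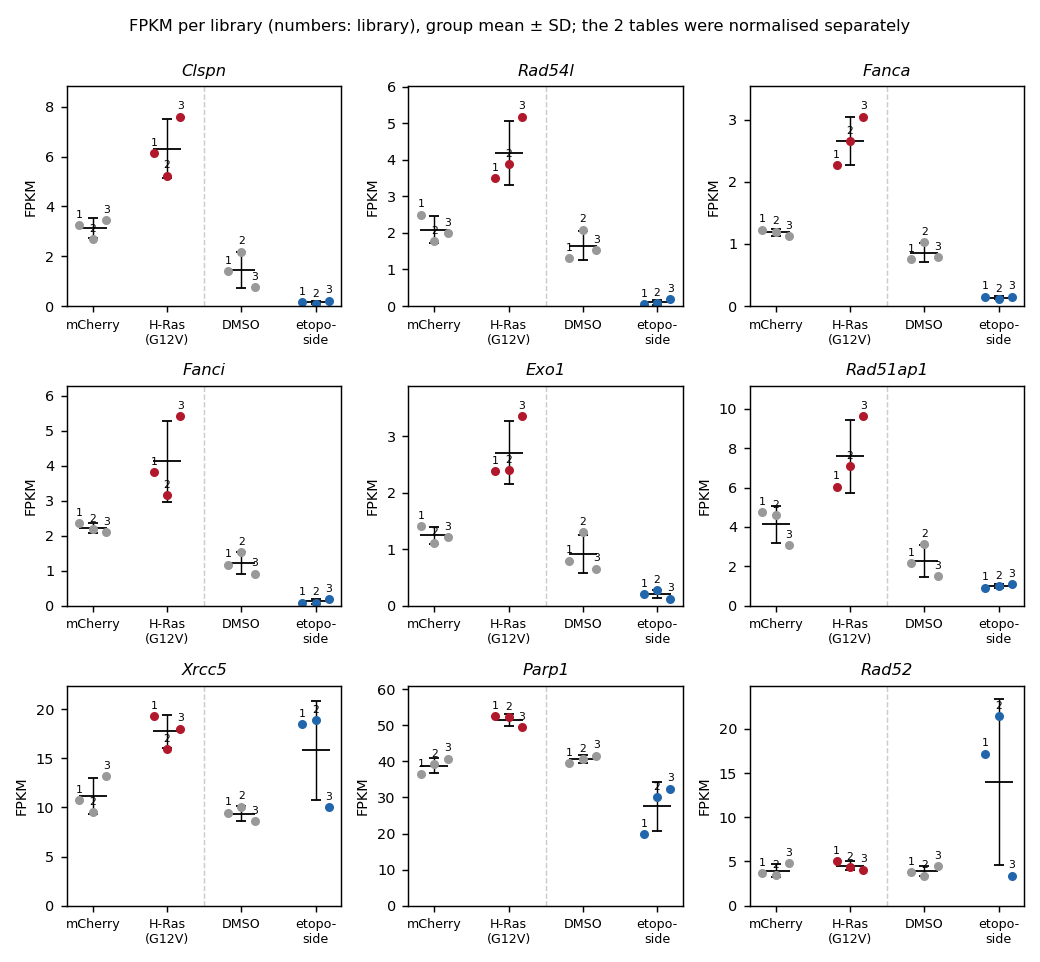
Each panel gives the FPKM of a member in the 12 libraries, numbered within their group, with the group mean and SD as a bar. Clspn, Rad54l, Fanca, Fanci and Exo1 lie highest with H-Ras(G12V) and near 0 with etoposide, and in the Rad52 panel etoposide libraries 1 and 2 read 17.19 and 21.41 FPKM while library 3 lies among the controls. The vertical line parts the 2 tables, which were normalised separately.

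Among tested members, Rad51ap1, Xrcc2, Ung, Mdc1 and Parp1 had etoposide values below all DMSO values. Rad51ap1 read 0.92, 1.01 and 1.09 FPKM against 2.18, 3.14 and 1.51 in DMSO libraries 1, 2 and 3 (log2 fold change -0.68, SE 0.27, adjusted p = 0.356). Ung read 1.49, 2.16 and 0.79 FPKM against 2.38, 3.12 and 3.47 (log2 fold change -0.71, adjusted p = 0.357). Xrcc2, which acts in recombination, read 1.44 to 1.94 against 2.71 to 3.65 FPKM, and Mdc1 2.12 to 2.65 against 3.40 to 4.40 FPKM. Parp1 read 19.90, 30.19 and 32.49 FPKM against 39.43, 40.64 and 41.63, so that etoposide library 1 was the lowest (log2 fold change -0.57, adjusted p = 0.368). Polb was the member with etoposide values above all DMSO values, at 45.05, 64.51 and 35.03 FPKM against 33.16, 35 and 33.17 (adjusted p = 0.431), and etoposide library 3 lay next to the controls.

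Several members were high in etoposide libraries 1 and 2 and at control level in library 3. Rad52, a mediator of strand annealing, read 17.19, 21.41 and 3.39 FPKM in etoposide libraries 1, 2 and 3 and 3.78, 3.40 and 4.49 in the DMSO libraries. Xrcc5 read 18.50, 18.90 and 10.02 FPKM against 9.46, 10.07 and 8.61. Ogg1 read 10.72, 13.97 and 4.51 FPKM against 4.86, 5.06 and 6.42. Msh6 read 20.96, 18.58 and 10.07 FPKM against 10.02, 10.81 and 8.43. In all, etoposide libraries 1 and 2 both lay above every DMSO library for 10 of the 45 members, and library 3 did so for 1 of these, Polb. Over 14826 genes averaging at least 0.1 FPKM, 36.1% lay above in both libraries, and library 3 did so for 22.9% of those. The other members were Apex1, Lig3, Nbn, Rbbp8 and Xrcc6. In contrast, etoposide libraries 1 and 2 both lay below every DMSO library for 13 members, and library 3 did so for 12 of these. Over the same genes, 22.9% lay below in both libraries, and library 3 did so for 36.9% of those. Neuronal and microglial markers split along the same libraries, and the other cell type lists did not. The neuronal sum was 1398, 2573 and 4358 FPKM in etoposide libraries 1, 2 and 3, against 3586 to 3810 with DMSO. The microglial sum was 169, 110.4 and 35.6 FPKM, against 24.0 to 80.0 with DMSO. Sums of astrocyte, oligodendrocyte lineage and neural progenitor markers lay below every DMSO sum in etoposide libraries 1, 2 and 3. The fibroblast and mural cell sum was 695, 169 and 314 FPKM, against 149 to 471 with DMSO. The part of these cell types in the members' values was not tested.

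Leaving out etoposide library 3 changed the calls. Of 36 members then tested, 4 were higher, Rad52 (log2 fold change 2.05, adjusted p = 0.000704), Xrcc5, Ogg1 and Msh6, and 1, Rad54l, was lower (log2 fold change -1.30, adjusted p = 0.00351). That fit called 3938 of 12403 genes, 18.4% higher and 13.4% lower, so the members were called no more often than genes in general. Rad54l reached the mean of 1 FPKM in it only through the DMSO libraries, so its call there carries no weight. Without both etoposide library 3 and DMSO library 3, a setting chosen after seeing the data, 5 members were higher, the same 4 and Apex1, and 2 were lower, Rad51ap1 and Prkdc, where 22.2% and 14.1% of 12457 genes were called. Over 16 settings the adjusted p of Rad52 ranged from 0.000704 to 0.807. Without DMSO library 3 alone, no member was called.

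Transcript length moved with DMSO library 3 and with the etoposide libraries. Against the other DMSO libraries, its median difference over genes was -0.58 on the log2 scale for transcripts over 6 kb and 0.37 for those under 2 kb, by lengths of GENCODE M21. Etoposide library 3 differed from libraries 1 and 2 by -0.44 under 2 kb and 0.14 over 6 kb, and etoposide library 1 from the other 2 by 0.24 and -0.18. Rad52, at 1693 bases, and Ogg1, at 1549 bases, are short members that lay lowest in etoposide library 3. DMSO library 3 was the lowest of its group for 13 of the 17 members with transcripts of at least 5 kb, with a median difference of -0.63, and for 6 of the 15 members under 3 kb, with a median difference of -0.04. Atm, at 9819 bases, read 1.86, 2.24 and 0.76 FPKM in DMSO libraries 1, 2 and 3, and Topbp1 read 11.25, 11.65 and 5.33. The part of length in the comparisons of these members was not tested.

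**Figure D4:**
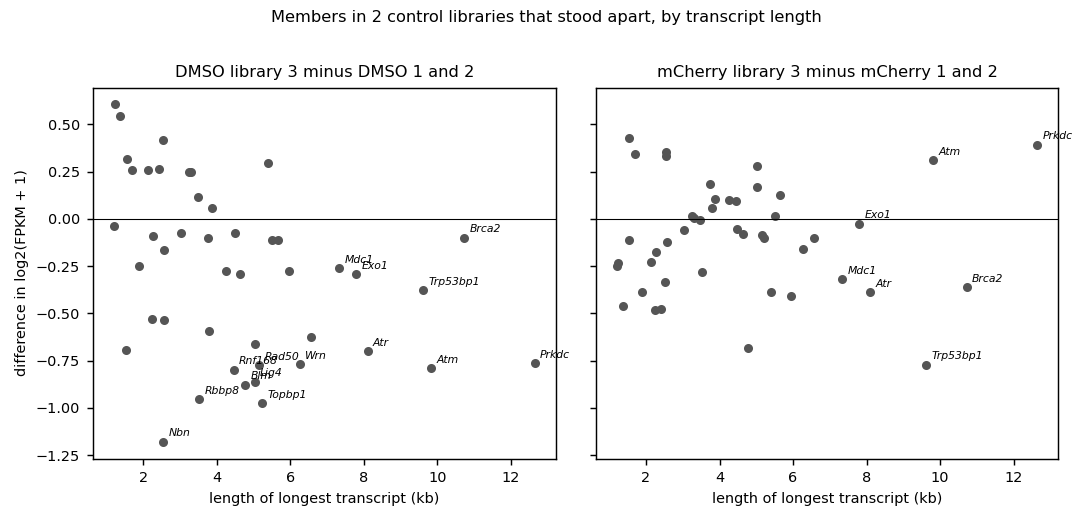
Each point is a member, placed by the length of its longest annotated transcript in kb and by the difference in log2(FPKM + 1) of 1 control library from the mean of the other 2 in its group. On the left, most of the long members lie below 0 in DMSO library 3. On the right, mCherry library 3 shows members of all lengths on both sides, with Trp53bp1 among the lowest.

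The effects of the models were then compared directly, by subtracting the etoposide effect from that of H-Ras(G12V) in a fit of the 12 libraries. The models share no control libraries. Of the 35 members tested in both tables, 1, Rad51ap1, passed, with a difference of 1.41 (SE 0.34, limma adjusted p = 0.0457), and none passed in the lower direction. Over all 12179 genes tested, 2.5% were higher and 0.279% lower, so the members' share was close to that of all genes. At an unadjusted p under 0.05, 6 members were higher and none was lower, where 9.8% and 7.51% of all tested genes were. Ung, at 1.30 (adjusted p = 0.0568), and Parp1, at 0.97 (adjusted p = 0.0857), came next. Over 20 alternative settings the adjusted p of Rad51ap1 ranged from 0.00843 to 0.140. It was lost, among others, without any of the 3 H-Ras(G12V) libraries, mCherry library 1 or 2, etoposide library 1 or 2, or DMSO library 1 or 2, each left out in turn.

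With no filter on level, 8 of the 45 members had a larger effect of H-Ras(G12V) than of etoposide and none a smaller one, where 3.18% and 0.321% of 17120 genes did so. They were Rad54l, with a difference of 1.99 (adjusted p = 0.000928), Clspn at 1.87 (adjusted p = 0.00661), Fanci at 1.61 (adjusted p = 0.00336), Fanca at 1.44 (adjusted p = 0.000422), Fancd2, Rad51ap1, Exo1 and Bard1. These are genes of recombination, Fanconi anaemia and the ATR checkpoint. In 11 of the 45 members, each H-Ras(G12V) value lay above each mCherry value and each etoposide value below each DMSO value. Of 14505 genes averaging at least 0.1 FPKM in both tables, as all members did, 3.2% showed this joint pattern. The 11 were the 8 just named with Mdc1, Parp1 and Ung. Without etoposide library 3, 6 members were higher, Mdc1, Parp1, Rad51ap1, Rad54l, Ung and Xrcc2, and 1 was lower, Rad52 (difference -1.90, adjusted p = 0.000791), where 9.75% and 11.6% of 12190 genes were called. Rad54l again entered that test only through its DMSO values.

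**Figure D5:**
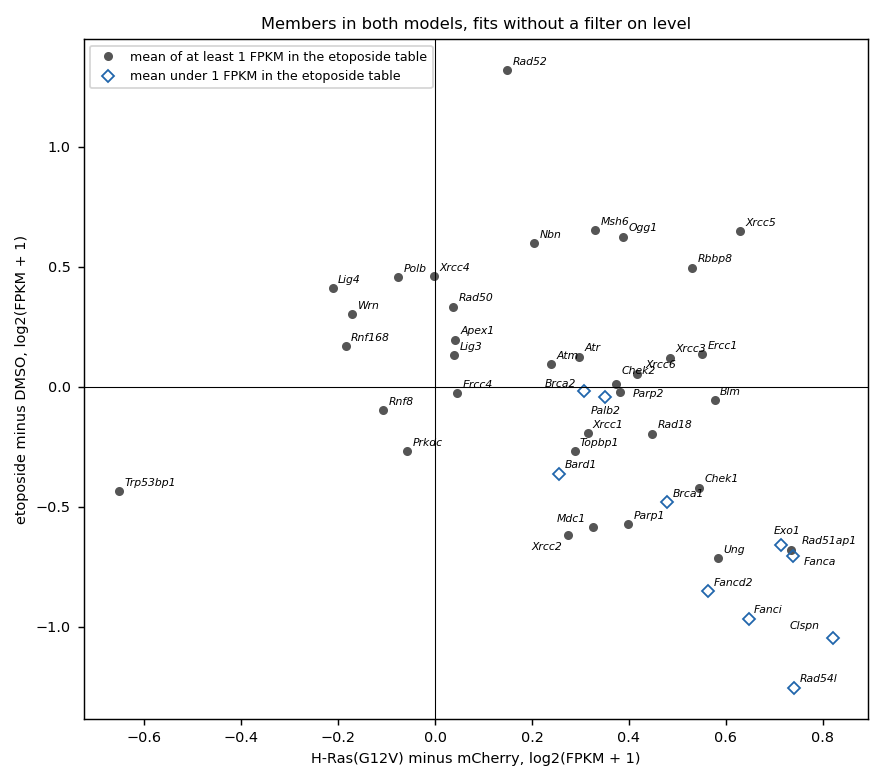
Each point is a member, placed by its log2 fold change with H-Ras(G12V) on the horizontal axis and with etoposide on the vertical axis, from fits with no filter on level. Blue diamonds average under 1 FPKM in the etoposide table. Rad54l, Clspn, Fanci and Fancd2 lie at the lower right, Rad52 at the top and Trp53bp1 at the left.

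The summed level of genes of DNA replication and mitosis was higher with H-Ras(G12V) and lower with etoposide than in the controls. Of 30 such genes, 23 rose with H-Ras(G12V), where 10.3% of all tested genes did. The median log2 fold change of the 30 was 0.85, and their summed level was 757 to 1045 FPKM against 423 to 528 with mCherry. With etoposide, 8 of the 27 tested fell, where 0.453% of all tested genes did. The median of the 27 was -1.49, and the sum was 102 to 237 FPKM against 268 to 380 with DMSO. A gene could enter that test through its DMSO values alone. With no filter on level, 4 of the 30 were called lower, with a median of -1.42, where 0.293% of all genes were. None of the 30 was at 0 in any library. In every comparison the sum was separate between groups, and etoposide library 3 was the lowest of all at 102 FPKM. Ccna2, the S and G2 phase cyclin, read 0.45, 0.49 and 0.89 FPKM with etoposide and 9.43, 13.93 and 7.34 with DMSO. It reached the mean of 1 FPKM only through the DMSO libraries, so its call there carries no weight. The sum of all 45 members was 443 to 512 FPKM with H-Ras(G12V) against 374 to 423 with mCherry. With etoposide it was 294 to 438 FPKM, which overlapped the 333 to 341 with DMSO. The part of dividing cells in the members' values was not tested.

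Markers of cell types that can divide in such cultures also differed. Over all genes tested, 10.3% were called higher and 6.67% lower with H-Ras(G12V), and 0% and 0.453% with etoposide. Of the oligodendrocyte lineage markers, 7 of 10 tested rose with H-Ras(G12V), at a sum of 947 to 1160 FPKM against 232 to 784, and 4 of 9 tested fell with etoposide, at 78.0 to 220.0 FPKM against 565 to 925. Gpr17 and Mag were at 0 in etoposide library 3. Of the neural progenitor markers, 3 of 9 rose with H-Ras(G12V), at 5314 to 6270 FPKM against 2880 to 3615. With etoposide 2 of 9 fell, at a sum of 540 to 997 FPKM against 1909 to 2435, but 3 of 9 had a positive log2 fold change. Their median log2 fold change with etoposide was -0.23, and with no filter on level 0 of 10 were called. Astrocyte markers gave 2 of 10 higher with H-Ras(G12V), at 2629 to 3772 FPKM against 1224 to 3208, and none called with etoposide, at 625 to 984 against 1073 to 1624. Library 3 stood apart among the mCherry sums. In mCherry libraries 1, 2 and 3 the astrocyte sum was 1224, 1231 and 3208 FPKM and the oligodendrocyte lineage sum 299.5, 232.4 and 784. The neuronal sum there was 3771, 3936 and 2850 FPKM. Fibroblast and mural cell markers gave 9 of 11 lower with H-Ras(G12V), at 60.8 to 86.2 FPKM against 214 to 324, and none called with etoposide. Neuronal markers gave 1 higher and 4 lower of 17 with H-Ras(G12V) and none called with etoposide. Microglial markers gave 2 of 5 higher with H-Ras(G12V) and none called with etoposide, and C1qa, C1qc and Itgam were at 0 in mCherry library 3. The part of these cell types in the members' values was not tested.

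The wider repair network was read from 97 further genes of the same pathways. With H-Ras(G12V), 12 of 93 tested rose and none fell (25 and 2 at an unadjusted p under 0.05), with a median log2 fold change of 0.12. Over all genes 10.3% and 6.67% were called (20.4% and 14% unadjusted), so the share that rose was near the background. The largest were Mgmt, which reverses alkylated guanine, at 3.31, 3.18 and 6.28 FPKM in the mCherry libraries and 10.2, 13.08 and 12.32 with H-Ras(G12V) (log2 fold change 1.33, adjusted p = 0.0141), and Timeless, a replication fork protector, at 2.38 to 2.76 against 6.07 to 8.03 FPKM (log2 fold change 1.15, adjusted p = 0.00509). Lig1, the replicative ligase, rose by 0.82 on the log2 scale (adjusted p = 0.0217), Alkbh3, a demethylase for alkylated bases, by 0.78, Fen1, the flap endonuclease, by 0.78 (adjusted p = 0.00978) and Mutyh, a glycosylase for mispaired adenine, by 0.75. By pathway, the called genes were 4 of 20 in recombination, 3 of 12 in base excision, 3 of 9 in mismatch repair and direct reversal, 1 of 12 in the checkpoint and 1 of 6 in end joining, and none of 12 in nucleotide excision, 12 in the Fanconi anaemia pathway and 10 in lesion bypass.

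With etoposide, 1 of 85 of these further genes was called, in the lower direction (5 higher and 5 lower at an unadjusted p under 0.05), and the median log2 fold change was 0.15. Over all genes tested, 0% were called higher and 0.453% lower (7.42% and 6.52% unadjusted). The called gene was Lig1, at 1.55, 1.92 and 2.27 FPKM against 7.23, 10.26 and 10.55 in the DMSO libraries (log2 fold change -1.82, SE 0.28, adjusted p = 0.0313). Lig1 thus passed in opposite directions in the models. In the direct comparison 4 of 84 were higher and none was lower (10 and 4 at an unadjusted p under 0.05). There, 2.5% of all tested genes were higher and 0.279% lower (9.8% and 7.51% unadjusted).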

How the data were processed

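Messenger RNA of primary mouse neurons was measured in 12 libraries after oligo-dT enrichment, per the labels' protocols. The authors deposited FPKM values for each gene and library in 1 table per model, per the file headers. HISAT, Bowtie2, RSEM and build mm9 are named, without versions, in the submitters' processing notes. Any use of strand is not stated. Each table was taken as normalised on its own. The values, as log2(FPKM + 1), went into limma 3.58.1 (R 4.3.3; eBayes with a trend) where a gene's mean over 6 libraries reached 1 FPKM, with two-sided p-values and Benjamini-Hochberg adjustment over all genes tested. The interaction contrast used all 12 libraries. The fit was tested on simulated data with independent noise in each gene and no library standing apart. That setting differs from these libraries, so the test does not speak for the calls given here. Depth was estimated roughly from the steps of low values, assuming fragments of 200 bases and GENCODE M21 lengths. No count model was fitted. The members and lists were chosen with earlier results of these data known. The text describes all 45 members, and of the 97 further repair genes up to 6 called per comparison by size of log2 fold change; marker lists are given by counts and sums, and Ccna2, Gpr17, Mag, C1qa, C1qc and Itgam by the rule on list order or on values at 0. Settings tried were pseudocounts of 0.1 and 5, no filter or 5 FPKM, 2 scalings, no trend, a replicate block, averaging mCherry libraries 1 and 2, a single fit and leaving out libraries.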

Additional observations from a re-analysis of the deposited data

Results flagged for a closer look

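The effects of H-Ras(G12V) and etoposide differed by a test of the difference itself for 8 members. Rad51ap1 was the member among those averaging at least 1 FPKM in both tables, with a difference of 1.41 on the log2(FPKM + 1) scale (limma adjusted p = 0.0457). The other 7 averaged less than that in the etoposide table and were read from the fit with no filter on level. Their differences were 1.99 for Rad54l, 1.87 for Clspn, 1.61 for Fanci, 1.44 for Fanca, 1.42 for Fancd2, 1.37 for Exo1 and 0.62 for Bard1. Over all genes, the fit with no filter called 3.18% higher. Rad51ap1 lost its call under several other settings. All 8 had H-Ras(G12V) values above all mCherry values and etoposide values below all DMSO values. They were picked by the difference in these same libraries, so that separation adds no support. Groups of 3 libraries were not tested for outlying values.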

How the results depend on the processing

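No member changed sign past the threshold in any comparison under the settings run. For H-Ras(G12V), 8 members higher and 0 lower became 2 higher with a mean of at least 5 FPKM (20 members tested), 4 and 1 once libraries were scaled to a common sum, 5 higher with median-of-ratios scaling, 0 with mCherry libraries 1 and 2 averaged and 0 in a single fit of 12 libraries, which drops members under 1 FPKM in the etoposide table. Over all genes, the mean of at least 5 FPKM gave 939 higher and 650 lower of 9948. Leaving out 1 library gave 0 to 14 members higher and 0 to 1 lower. For etoposide, 0 and 0 became 3 lower with no filter, and 0 to 4 higher and 0 to 1 lower when 1 library was left out. That 1 lower call was Rad54l, which entered the fit only through its DMSO values and carries no weight. Without etoposide library 3 and DMSO library 3, 5 were higher and 2 lower. For the difference between models, 1 higher became 8 with no filter, 0 with a mean of at least 5 FPKM and 2 with median-of-ratios scaling. That scaling called 294 of 12168 genes higher there and 43 lower. The 1 higher member became 0 to 6, with 0 to 1 lower, when 1 library was left out. Among those 6, without etoposide library 3, Rad54l entered the fit only through its DMSO values. Without etoposide library 3 and DMSO library 3, a setting chosen after seeing the data, 7 were higher and 2 lower. That fit called 1278 genes higher and 1679 lower of 12205 tested. Beyond filters and fewer libraries, the cause of these moves was not tested. Same-numbered libraries of a table had deviation correlations of -0.04, 0.03 and 0.12 for H-Ras(G12V) with mCherry. For etoposide with DMSO they were -0.26, -0.17 and -0.15. Each library was taken as its deviation from a group mean of 3, so these values cannot decide whether the numbers pair libraries. With the replicate block, 3 members were higher with H-Ras(G12V), 0 with etoposide and 0 for the difference. That block called 1010 of 12724 genes higher and 671 lower with H-Ras(G12V). Over all genes, the 2161 called with H-Ras(G12V) became 5716 without mCherry library 3, 496 to 1131 without another single library, 639 with mCherry libraries 1 and 2 averaged and 307 in the single fit. The 56 called with etoposide became 3938 without etoposide library 3, 6 without etoposide library 2, 4 without DMSO library 3 and 12 with the replicate block. Depth limits the members listed under 1 FPKM, whose etoposide values rest on few fragments.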
